A study of Rattus norvegicus with 4 samples.

Results

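Neurotransmitter receptors were examined in cultured olfactory ensheathing cells, the glia that enclose bundles of olfactory axons in the nose and in the outer layer of the olfactory bulb. The members are the array's gene names for GABA-A subunits (Gabr), ionotropic glutamate receptors of the AMPA, kainate, delta and NMDA kinds (Gria, Grik, Grid, Grin), metabotropic glutamate receptors (Grm), muscarinic and nicotinic acetylcholine receptors (Chrm, Chrn), serotonin receptors (Htr), dopamine receptors (Drd) and adrenergic receptors (Adra, Adrb). Chosen by name alone, they are 94 of the array's 35658 gene names, with 115 of its 41012 probes. One of them, Drd1ip, is by its current name Caly a protein that interacts with a dopamine receptor, and no receptor itself.

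Messenger RNA came from ensheathing cells of male Fischer rats, cultured by 1 protocol from the olfactory mucosa of the nose or from the olfactory bulb of the brain, with no treatment named for either group. The 4 two-colour arrays are biological replicates, each comparing paired mucosa (Cy5) and bulb (Cy3) cells in the same dye order, so dye and tissue cannot be told apart. Complementary DNA was amplified by a global PCR before labelling, with 250 ng per channel. Ratios are log2 of mucosa over bulb, so that 1 is a 2-fold higher value in mucosa, and are given as mean ± SD over the 4 arrays. "Called" means an adjusted p under 0.05 in limma with Benjamini-Hochberg adjustment over all 31868 gene names tested.

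Ligand-gated channels, such as AMPA, NMDA, GABA-A and nicotinic receptors, are assembled from several subunits and pass ions within milliseconds of transmitter binding. Metabotropic, muscarinic, adrenergic, dopamine and most serotonin receptors instead act through G proteins on cyclic AMP or on calcium stores. In the olfactory nerve, sensory axons release glutamate and ATP along their course, and ensheathing cells answer such release with calcium signals.

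The label of the cells was checked against marker genes. All 18 tested markers of ensheathing and Schwann glia, among them S100b, Sox10 and Ngfr, were well above background on all 4 arrays in both cultures. Of these 18, 1 was called higher and 9 lower in mucosa, and their summed level (linear normalized intensity) was 64600 to 86700 in mucosa against 103000 to 125000 in bulb. Of 12 fibroblast markers 5 were called higher and 3 lower (summed level 362000 to 403000 against 214000 to 266000), and of 8 tested smooth muscle and pericyte markers 5 were called higher and 0 lower (144000 to 151000 against 44000 to 56100). Of 13 tested neuronal markers 0 were called higher and 3 lower (11300 to 17000 against 20200 to 23900), and 12 of the 13 were above background on all arrays in both cultures. The 3 called were all neurofilament genes, and the median ratio of the neuronal list was -0.09. Macrophage and microglia markers had 0 of 7 tested called (23100 to 30700 against 10700 to 29500). Several changed sign between arrays, such as Cd68 (chosen after its values were seen) at 1.84, 0.75, -2.34 and -3.48. Fcgr2b was negative and Tyrobp positive on all 4 arrays. The part of these other cell types in the receptor values below was not tested, and in such bulk RNA fewer cells of a type and less RNA per cell cannot be told apart.

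The sequences below are probes of the genes on which the results turn, as given in the deposited scanner files, each 60 bases long and read 5′ to 3′. The first set holds AMPA subunit probes, because Gria1 and Gria3 were called higher in mucosa and Gria4 probe 1 covers a similar stretch. Capitals mark the longest run of bases that the Gria1 and Gria4 probes share.
Gria1 probe: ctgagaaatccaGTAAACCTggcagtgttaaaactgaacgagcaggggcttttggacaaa
Gria4 probe 1: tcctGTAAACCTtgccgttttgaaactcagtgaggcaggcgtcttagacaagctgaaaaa
Gria3 probe: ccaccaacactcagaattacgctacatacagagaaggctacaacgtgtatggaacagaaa

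Without gaps, the Gria1 and Gria4 probes matched at 36 of 52 aligned bases, with a longest shared run of 8 bases. The Gria1 and Gria3 probes matched at 21 of 57. Among all receptor probes, the longest run shared by probes of different genes was 13 bases. The Gria3 probe lies at chrX:3459714-3459773 and Gria4 probe 1 at chr8:963017-963076, both on the minus strand of the rn4 build. The files give no position for the Gria1 probe.

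Grm8 has 2 probes and Chrna4 has 1, and both genes were called lower in mucosa. Capitals mark the 18 bases that the Grm8 probes share.
Grm8 probe 2: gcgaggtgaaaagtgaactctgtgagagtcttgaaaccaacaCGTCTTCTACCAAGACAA
Grm8 probe 1: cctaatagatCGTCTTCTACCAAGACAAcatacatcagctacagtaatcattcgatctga
Chrna4 probe: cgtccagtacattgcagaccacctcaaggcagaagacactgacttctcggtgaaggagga

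All 3 of these probes span more of the genome than their own length, so each crosses at least 1 intron in that build's coordinates, and all are on the minus strand of rn4. Grm8 probe 2 runs over chr4:53976813-53983310, a span of 6498 bases. Grm8 probe 1 runs over chr4:53976781-53983223, a span of 6443 bases. Before the bases in capitals the sequences of the Grm8 probes differ, so these probes read different exon joins. The Chrna4 probe runs over chr3:170171576-170174943, a span of 3368 bases. Of the 113 receptor probes with a position, 16 span an intron in this way.

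Most receptor genes gave a signal in both cultures. With a gene counted as above background where any of its probes was, 76 of 94 receptor genes were well above background on all 4 arrays in mucosa, 72 in bulb and 71 in both. Only 7 gave no such signal on any array in either culture. By probe, 74.8% of the receptor probes were well above background on all arrays in mucosa and 70.4% in bulb, against 79.4% and 84.6% of all probes. Of 153 negative control spots, 0 were above background on all arrays and 146 on none. By the same measure, 52.6% of 1111 odorant receptor probes (chosen after seeing the data) passed on all arrays in mucosa and 50% in bulb. How much of such signal comes from the named transcript was not tested, so a gene counted here is a signal and not proven RNA. Signal above background also does not say that a receptor protein was present.

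**Figure D1:**
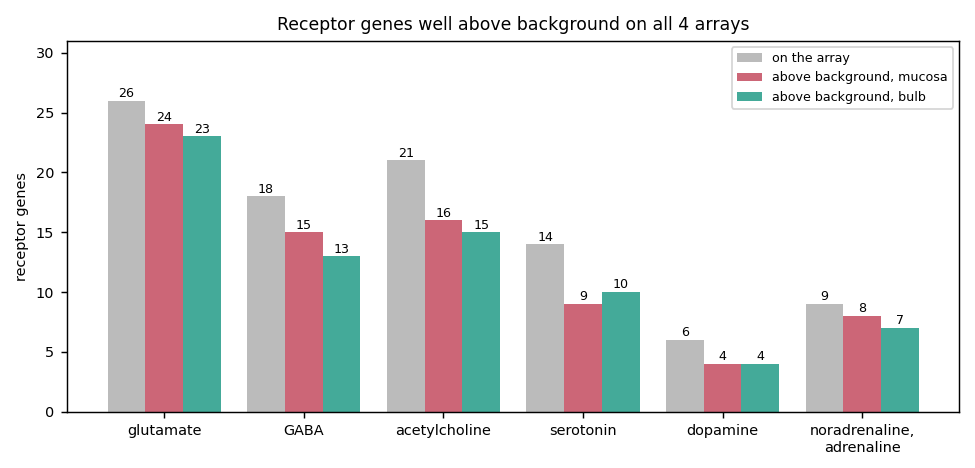
Bars give the number of receptor genes (vertical axis) per transmitter that were on the array, and the number well above background on all 4 arrays in mucosa and in bulb. The 2 cultures differ by at most 2 genes in each transmitter class.

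By transmitter, glutamate receptors had 24 of 26 genes above background on all arrays in mucosa and 23 in bulb. GABA-A subunits had 15 of 18 in mucosa and 13 in bulb, and acetylcholine receptors 16 of 21 and 15. Serotonin receptors had 9 of 14 in mucosa and 10 in bulb, and adrenergic receptors 8 of 9 and 7. Dopamine names had 4 of 6 in both cultures, with Drd1ip, no receptor itself, among the 4. In 5 genes (chosen after their values were seen: Gabra3, Gabra5, Chrna3, Grik4 and Adra1a) all arrays were above background in mucosa and 3 in bulb, and Htr5a had the reverse, with 3 arrays in mucosa and 4 in bulb. No gene was above background on all arrays of one culture and at most 1 of the other.

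The 12 genes that were not tested were too dim in both cultures. Of these, 7 were above background on 0 arrays in either culture, namely Chrm5, Chrna1, Gabrb1, Gabrr1, Htr1b, Htr1f and Htr4. Gabrg1 and Htr1d reached 1 array in mucosa, Chrna9 and Drd1a 1 array in bulb, and Grin3a 2 arrays in mucosa and 1 in bulb. Htr1b, Htr1d and Htr1f are Gi-coupled serotonin receptors, and Drd1a encodes the D1 dopamine receptor, which raises cyclic AMP. For these genes neither a level nor a difference can be stated.

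Few receptor genes differed between the cultures. Of 82 tested, 4 were called, or 4.88%, against 6.62% of all gene names. The AMPA subunits Gria3 and Gria1 were higher in mucosa (2.44% of the tested receptors, against 3.24% of all names), and the metabotropic glutamate receptor Grm8 and the nicotinic subunit Chrna4 were lower (2.44% against 3.39%). A mean ratio of at least 2-fold was reached by 8 receptor genes (9.76%), against 12.9% of all names. These shares lie near or below the background and mark nothing particular to receptors. For 57 of the 82 genes the whole 95% interval of the mean ratio lay within 1 log2 unit of 0, so that a signal difference above 2-fold was outside it. Some of these genes were near background, such as Htr1a (mean log2 level 6.66 in mucosa and 6.55 in bulb). Chrnb3 was above background on 3 arrays in mucosa and 1 in bulb. For such dim genes the interval does not exclude a larger difference in RNA. The same count over all names was not made. All mucosa levels lay above all bulb levels in 14 of the 82 genes and below them in 4, and the levels overlapped in 64. This count, too, was not made over all names, so non-overlap marks no single gene below as particular.

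**Figure D2:**
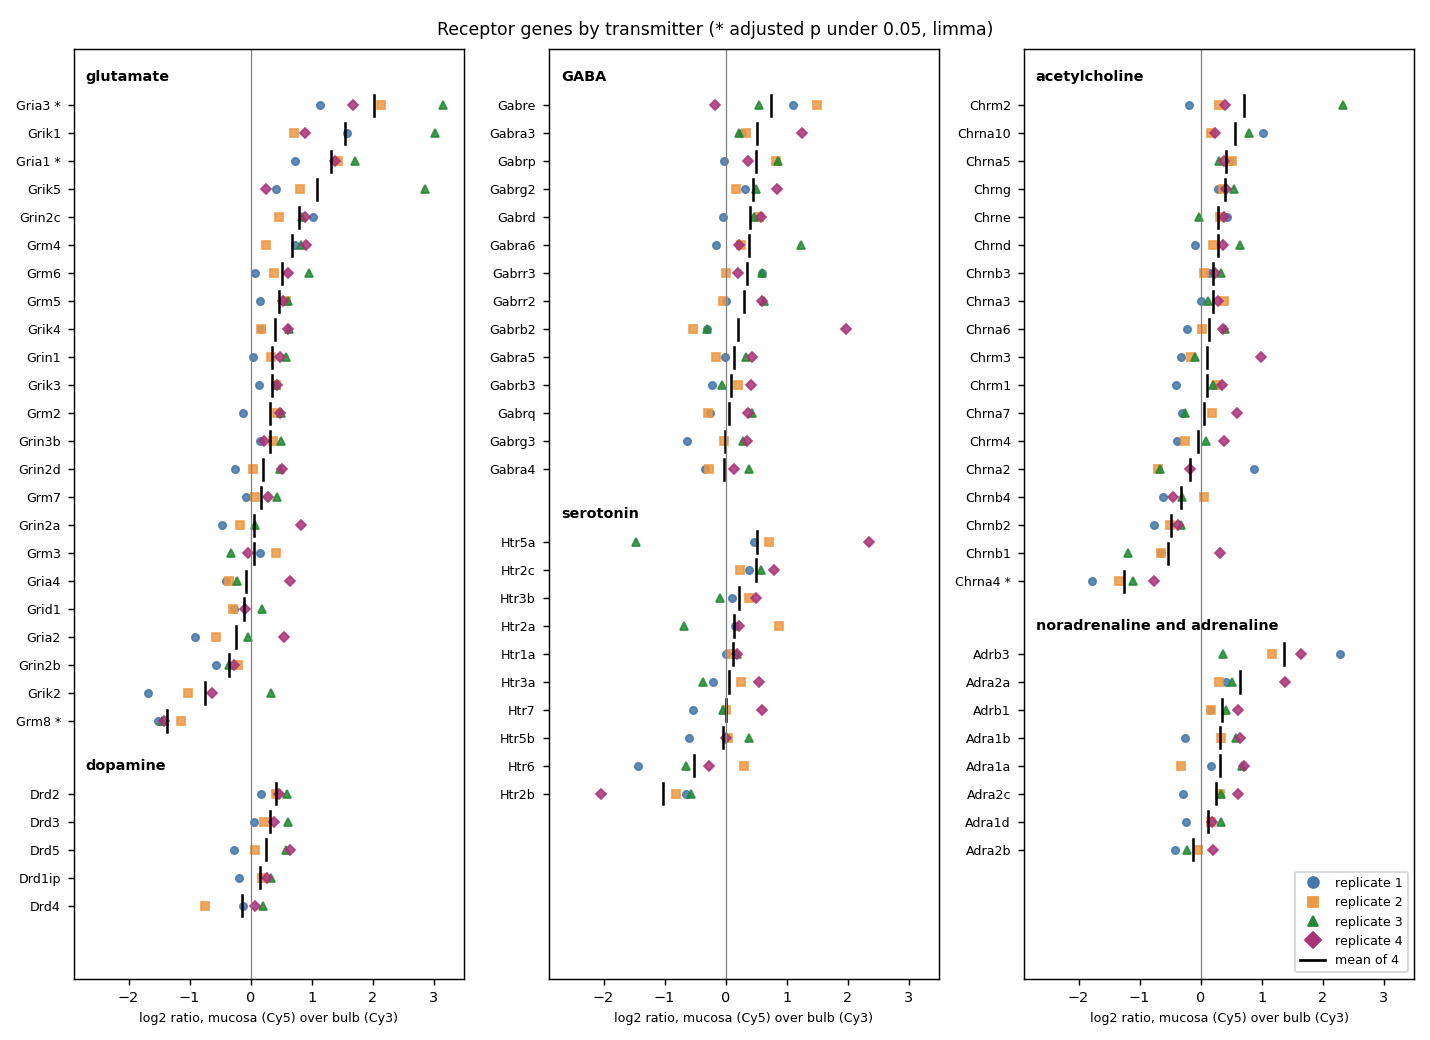
The horizontal axis is the log2 ratio of mucosa over bulb of 78 tested receptor genes, grouped by transmitter, with 1 symbol per replicate and a black bar at the mean of 4. Among the glutamate receptors, Gria3 has the highest mean, Grik1 (not called) lies between it and Gria1, and Grm8 has the lowest, and most other means lie within 0.5 of 0.

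Gria3 had the highest ratio among the receptors. It encodes an AMPA receptor subunit, part of the channel for fast glutamate signals. Its log2 level (normalized intensity) in mucosa was 11.47, 11.50, 12.28 and 11.11 in replicates 1 to 4, and in bulb 10.32, 9.36, 9.13 and 9.44. Mucosa was above bulb on every array and the cultures' levels did not overlap, with replicate 3 showing the widest gap and replicate 1 the narrowest. The mean log2 ratio was 2.03 ± 0.85 (SD, n = 4), which is 4.08-fold (limma adjusted p = 0.0252).

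Gria1, a further AMPA subunit, was also higher in mucosa at its 1 probe, so that splice forms of it cannot be told apart. Its log2 level was 8.33, 8.66, 9.09 and 8.83 in mucosa and 7.60, 7.24, 7.39 and 7.45 in bulb. The cultures did not overlap, and replicate 1 again had the smallest difference. Its mean log2 ratio was 1.31 ± 0.41 (SD, n = 4), or 2.48-fold (limma adjusted p = 0.0293).

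Grm8 encodes a group III metabotropic glutamate receptor, which lowers cyclic AMP through Gi proteins. At probe 2 its log2 level was 7.91, 7.73, 7.86 and 8.09 in mucosa and 9.42, 8.86, 9.31 and 9.51 in bulb. Bulb was higher on all 4 arrays by nearly the same amount, with no overlap. The mean log2 ratio was -1.38 ± 0.17 (SD, n = 4), a 2.60-fold lower level in mucosa (limma adjusted p = 0.0153). Probe 1 was not well above background on any array in mucosa and was above it on 3 in bulb. Its measured mean log2 levels were 6.20 in mucosa and 7.27 in bulb. With each mucosa array set no lower than its detection limit, the mean level was 2.07-fold lower in mucosa. This is no lower bound, because the bulb mean includes an array that was not above background. Probe 1 was not called (limma adjusted p over probes = 0.139). Since it could be tested only through its signal in bulb, its ratios on single arrays carry no exact value and are not set beside those of probe 2. Because the probes read different exon joins, the call at probe 2 need not hold for every splice form of Grm8.

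Chrna4 encodes an alpha subunit of neuronal nicotinic receptors, which often pair it with the beta subunit of Chrnb2. Its log2 level was 9.05, 9.37, 9.02 and 9.19 in mucosa and 10.83, 10.71, 10.12 and 9.95 in bulb. All mucosa values lay below all bulb values, and the spread was wider in bulb. The mean log2 ratio was -1.25 ± 0.43 (SD, n = 4), a 2.38-fold lower level in mucosa (limma adjusted p = 0.0347). Chrnb2 had a ratio of -0.49 ± 0.20, with the same sign on all 4 arrays, and was not called (limma adjusted p = 0.206).

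**Figure D3:**
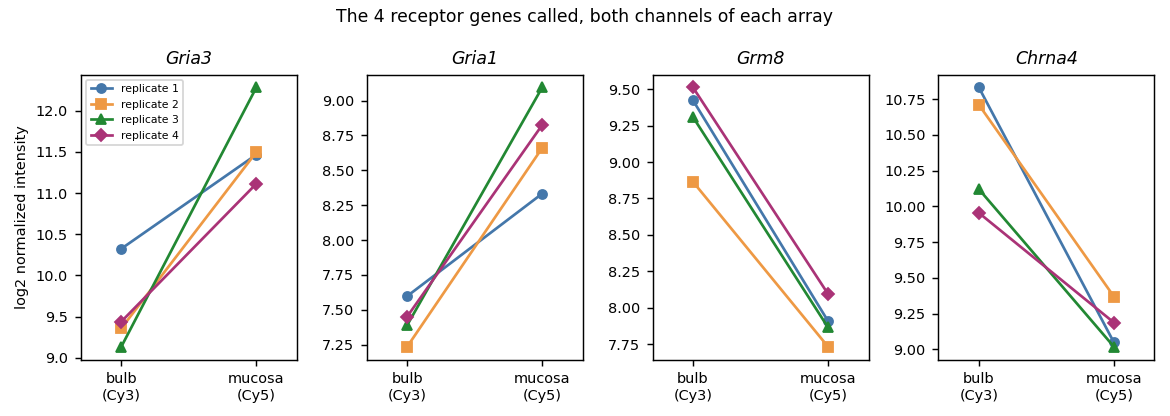
Lines join the log2 normalized intensity (vertical axis, a separate range in each panel) of bulb and mucosa on the same array for the 4 genes called. Gria3 and Gria1 rise and Grm8 and Chrna4 fall from bulb to mucosa on all 4 arrays.

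None of these 4 calls held on every set of 3 arrays. Gria1, Grm8 and Chrna4 lost theirs without any 1 of the 4 replicates, with limma adjusted p of at most 0.124, 0.0694 and 0.138. Gria3 lost its call without replicate 1, 2 or 4 (at most 0.0995) and kept it without replicate 3 (0.0492). All 4 kept their direction in each of these fits. Chrna4 also lost its call with the scanner software's processed signals and with median centring (limma adjusted p of at most 0.0705).

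The other AMPA subunits did not pass. Gria2 had a log2 ratio of -0.24 ± 0.63 at its brighter probe and 0.23 ± 0.57 at the other. Gria4 had -0.08 ± 0.49 at probe 2, and 0.75 ± 0.26 at probe 1, which was positive on all 4 arrays and was not called either (limma adjusted p over probes = 0.0968). AMPA receptors with Gria2 are known to pass little calcium. The brighter Gria2 probe was above background on all arrays in both cultures, with mean log2 levels of 11.31 in mucosa and 11.55 in bulb. The other Gria2 probe was dim, at 6.85 and 6.63, and above background on 4 arrays in mucosa and 3 in bulb. The level of Gria2 is thus not settled by these probes.

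Kainate receptors are glutamate-gated channels formed from Grik subunits. Of 5 tested, 0 were called. Grik1 had ratios of 1.57, 0.71, 3.02 and 0.90, with a mean of 1.55 ± 1.05 (limma adjusted p = 0.0810), and the cultures' levels did not overlap. Grik5 had 1.09 ± 1.21, with replicate 3 at 2.86 and the other arrays at 0.26 to 0.80. Grik2 had -0.75 ± 0.84, with replicate 3 positive and the rest negative. The delta subunit Grid1 had -0.11 ± 0.22.

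NMDA receptors need the obligatory subunit Grin1 and glycine or serine beside glutamate. Of 6 tested subunits, 0 were called, and their mean ratios ran from -0.35 to 0.80. The top of that range was Grin2c, at 1.01, 0.46, 0.84 and 0.88 on the 4 arrays (0.80 ± 0.24, limma adjusted p = 0.0782). Grin1 had 0.36 ± 0.24. The group I metabotropic receptor Grm5, which releases calcium from stores, had 0.47 ± 0.21. Grm4, of the same group III as Grm8, had 0.68 ± 0.29 and was positive on all arrays (limma adjusted p = 0.123). Of the 8 tested metabotropic genes, Grm8 was thus the 1 with a negative mean.

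GABA-A receptors are chloride channels, and 0 of 15 tested subunits were called, with means between -0.02 and 0.74. The top of the range was Gabre, the epsilon subunit, with 1.098, 1.496, 0.547 and -0.18 at its brighter probe (0.74 ± 0.73, limma adjusted p = 0.218). Its other probe gave 1.02, 0.74, 0.96 and 1.29, a mean of 1.00 ± 0.23 that was called over all probes (limma adjusted p = 0.0429). With it, 5 of 94 tested receptor probes were called (5.32%), against 6.55% of all probes. The brighter and the dimmer probe of Gabre thus parted on replicate 4. Gabra3, the alpha3 subunit, had 0.52 ± 0.49, and Gabrp, the pi subunit, had 0.50 ± 0.42. Gabrd, of receptors outside synapses, had 0.39 ± 0.29.

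Among acetylcholine receptors, 1 of 18 tested was called, Chrna4. The muscarinic receptor Chrm2, which couples to Gi, had ratios of -0.19, 0.30, 2.33 and 0.40 (0.71 ± 1.11), with replicate 3 far above the rest. Chrm1, Chrm3 and Chrm4 had means between -0.04 and 0.10. Chrna10, a subunit best known from cochlear hair cells, had 0.55 ± 0.42 (limma adjusted p = 0.225). Chrna7, which forms channels by itself, had 0.05 ± 0.42 at its brightest probe (mean log2 level 12.38 in mucosa and 12.32 in bulb). Another Chrna7 probe, which overlaps that one in the genome, was dim, at 6.57 and 6.53. The remaining Chrna7 probe was above background on 0 arrays in either culture, so the probes disagree on the level of this gene. The subunits of the muscle receptor gave different values, with -0.54 ± 0.62 for Chrnb1, 0.28 ± 0.31 for Chrnd, 0.28 ± 0.21 for Chrne and 0.40 ± 0.11 for Chrng.

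For serotonin receptors, 0 of 10 tested genes were called. Htr2b, which couples to Gq, had log2 ratios of -0.66, -0.81, -0.56 and -2.04 (-1.02 ± 0.69, limma adjusted p = 0.109). It was lower in mucosa on all 4 arrays with no overlap of levels, most so on replicate 4. Htr6, which couples to Gs, had -0.52 ± 0.73. Htr5a varied most, at 0.47, 0.71, -1.46 and 2.35 (0.52 ± 1.56), and its mean was -0.09 without replicate 4. The channel subunits Htr3a and Htr3b had 0.05 ± 0.42 and 0.22 ± 0.27.

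Dopamine receptors gave small ratios, and 0 of 5 tested names were called. Drd2, which couples to Gi, had 0.17, 0.41, 0.60 and 0.47 (0.41 ± 0.18, limma adjusted p = 0.271). Its levels did not overlap between cultures, from 9.29 to 9.72 in mucosa and from 8.92 to 9.12 in bulb, as in 14 receptor genes with mucosa higher. Drd3 had 0.32 ± 0.24 and Drd5 had 0.25 ± 0.44. Drd4 and Drd1ip had -0.15 ± 0.42 and 0.15 ± 0.23.

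Adrenergic receptors had 0 of 9 genes called. Adrb3, a Gs-coupled receptor best known from fat cells, had ratios of 2.28, 1.16, 0.36 and 1.64 (1.36 ± 0.81, limma adjusted p = 0.0688). It was above background on 3 arrays in mucosa and 2 in bulb, and it was called with the scanner software's processed signals, where its ratio was 2.67. Adra2a, which couples to Gi, had 0.65 ± 0.49 (limma adjusted p = 0.188).

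Adra1b, a Gq-coupled receptor, had the widest gap between probe means of the 11 genes with several tested probes (chosen after its values were seen). Probes 1 and 2 are shown because they lie 55783 bases apart in the genome and gave opposite signs. No base is in capitals.
Adra1b probe 1: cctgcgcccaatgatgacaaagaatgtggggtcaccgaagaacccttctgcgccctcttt
Adra1b probe 2: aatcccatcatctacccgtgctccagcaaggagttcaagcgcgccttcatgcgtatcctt

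Probe 1 lies at chr10:28945881-28945941 and probe 2 at chr10:28890098-28890157, on the minus strand of rn4. Probe 1 had log2 ratios of 0.62, -1.99, -2.29 and -2.39 (-1.51 ± 1.43, limma adjusted p over probes = 0.153). Probe 2 had 0.21, 0.29, 1.00 and 0.65 (0.54 ± 0.37), and the brightest probe, probe 3, had 0.32 ± 0.41. The probes agreed in sign on replicate 1 for probes 1 and 2 only, and on replicates 2 to 4 probe 1 was negative while the other 2 were positive. None was called, and all 3 were above background on all arrays in both cultures.

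**Figure D4:**
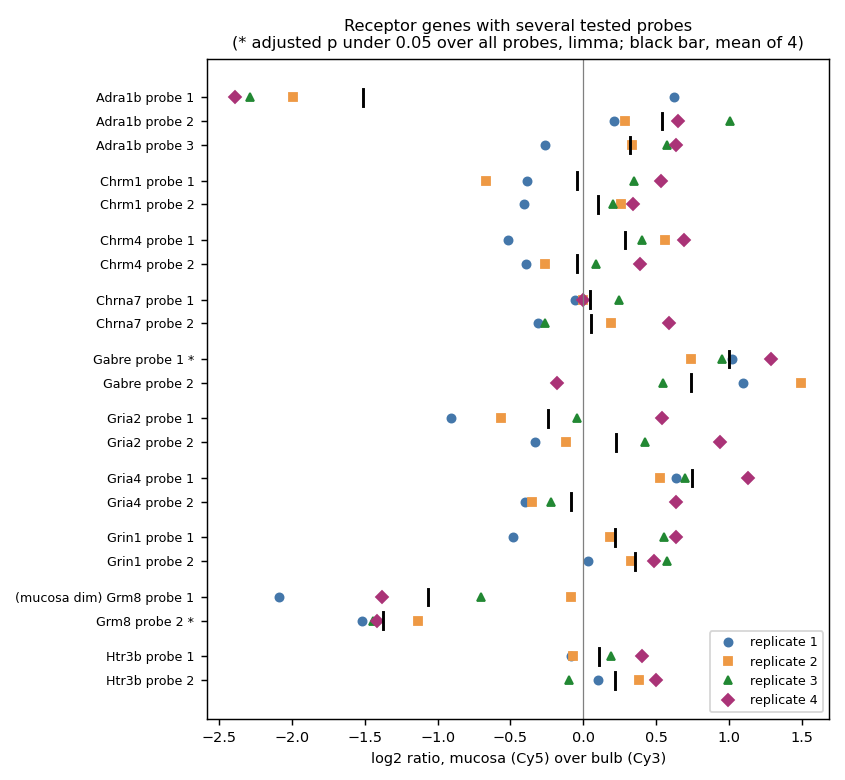
The horizontal axis is the log2 ratio of mucosa over bulb of each tested probe of 10 receptor genes with several, 1 symbol per replicate. Probes are numbered by position within their own transcript entry. Where the entries differ, as for Grm8, the numbers do not give the order along the gene. Adra1b probe 1 stands apart from its other 2 probes on 3 arrays. Grm8 probe 1, marked as dim, was above background on 0 arrays in mucosa, so its points carry no exact ratio.

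Across the receptor list the ratios leaned slightly to positive values, and unevenly over the arrays. The mean ratio was positive in 61 genes and negative in 21, with a median of 0.20, against 0.01 over all names. The median by array was -0.06, 0.18, 0.34 and 0.39 in replicates 1 to 4, against -0.0036 to 0.047 over all names. Replicate 1 held the lowest ratio in 50 of the 82 genes, replicate 3 the highest in 31 and replicate 4 in 34. Odorant receptor genes (684, chosen after seeing the data as a further large family) had medians of 0.02, 0.17, 0.37 and 0.49 on the same arrays, with a median of 0.27. The median signal in the mucosa channel was 842 and 839 on arrays 1 and 2 and 567 and 598 on arrays 3 and 4, against 342 to 382 in the bulb channel, and the part of signal or dye in this shift was not tested. Same signs on all 4 arrays were seen in 33 of 82 receptor genes (40.2%), against 33.6% of all names.

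The partners of the receptors included genes with larger differences than most receptors. Their lists were chosen with earlier results of these data known, so a share above that of all names is no test of a list. Of 17 tested transporters of transmitters, 0 were called higher and 3 lower (17.6%, against 3.39% of all names), with a median ratio of -0.01. The count was 1 with the scanner software's processed signals, with the deposited ratio and value table, with a filter that asks for signal on all 4 arrays in both channels, and without replicate 1, 2 or 4. Slc6a13, a GABA transporter, had -1.73 ± 0.66 (limma adjusted p = 0.0248). Slc1a3, the glial glutamate transporter GLAST, had -1.85 ± 0.83 (limma adjusted p = 0.0315) and was above background on 3 arrays in mucosa. Slc1a3 is also in the list of astrocyte markers, of which 3 of 9 tested were called lower and 0 higher (summed level 6000 to 8570 in mucosa, 7730 to 8620 in bulb), and the part of glial content in these transporter values was not tested.

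Of 17 tested enzymes of synthesis and breakdown, 1 was called higher and 1 lower (5.88% each, against 3.24% and 3.39% of all names). The count of 2 became 1 with the processed signals, the deposited ratio and value table, or without replicate 1, 3 or 4, 0 without replicate 2, and 5 with unpaired channels. Maoa, a monoamine oxidase that breaks down serotonin and noradrenaline, was lower (-2.20 ± 1.06, limma adjusted p = 0.0320), with -0.64 on replicate 1 and -2.49 or lower on the others. Of 31 tested anchoring and auxiliary proteins, 0 were higher and 1 was lower (3.23%, against 3.39%). This was Neto2, an auxiliary subunit of kainate receptors (-2.22 ± 0.63, limma adjusted p = 0.0109), whose ratio was negative on all 4 arrays while that of Grik1 was positive on all 4. As a mean over its probes the ratio of Neto2 was -1.20.

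G protein coupling had 4 of 43 tested genes higher (9.3%, against 3.24% of all names) and 0 lower. Plcb4, a phospholipase C driven by Gq, had 2.73 ± 0.56 (limma adjusted p = 0.00486). The adenylyl cyclases Adcy7 and Adcy4, which make cyclic AMP, had 2.29 ± 0.29 and 1.77 ± 0.59 (limma adjusted p = 0.00430 and 0.0191). Itpr1, the calcium release channel of inositol trisphosphate, had 1.29 ± 0.55 (limma adjusted p = 0.0431). The median over this list was 0.12, and 2 of its genes were called without replicate 1 and 9 with unpaired channels. Of 25 tested receptors outside the name rule (GABA-B, glycine, purine, histamine and trace amine receptors), 0 were higher and 1 lower (4%, against 3.39%), the adenosine receptor Adora2b (-1.28 ± 0.30, limma adjusted p = 0.0238). Among the partners named here, Adcy7 and Plcb4 kept their calls without any 1 replicate. Adora2b, Itpr1 and Slc1a3 lost theirs without any 1, Adcy4 and Neto2 without replicate 1 or 2, Maoa without 2, 3 or 4, and Slc6a13 without 1, 2 or 4. With all arrays but the scanner software's processed signals or the deposited ratio and value table, 4 of them were not called, Itpr1 (limma adjusted p = 0.299), Maoa (0.0717), Slc1a3 (0.0764) and Slc6a13 (0.0512). Itpr1 also lost its call with scale normalization between arrays (0.0654), without a filter on dim probes (0.0508) and as a mean over probes (0.107).

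**Figure D5:**
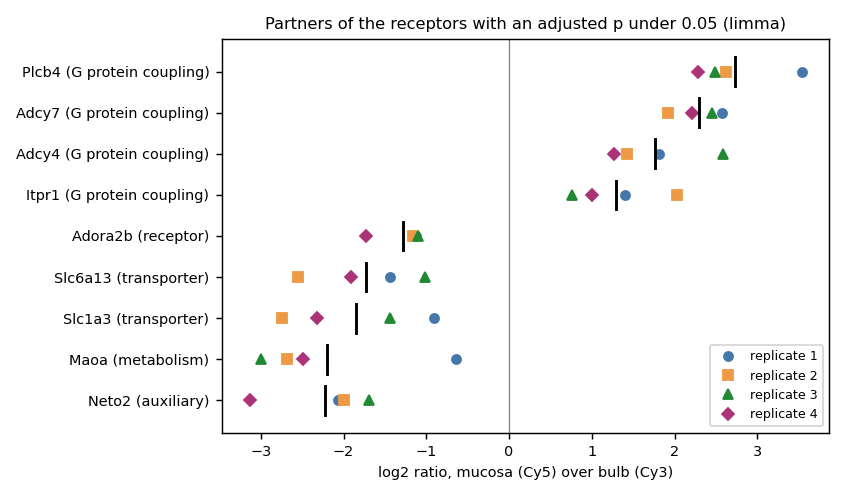
The horizontal axis is the log2 ratio of mucosa over bulb of 9 called partners of the receptors, with 1 symbol per replicate and a black bar at the mean. Of these, 4 are higher and 5 lower in mucosa, with the same sign on all 4 arrays.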

How the data were processed

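The 4 arrays are biological replicates of paired cultures, per the labels, and the p-values measure the spread between them. The deposited spot signals are linear intensity values, which the authors made with Agilent Feature Extraction, version 9.1 per the submitters' processing notes and 10.5.1.1 per the file headers. The deposited ratio and value table are log10 of Cy5 over Cy3. In limma 3.58.1 under R 4.3.3, signals were corrected by normexp (offset 50) and normalized by loess within arrays, with control and outlier spots at weight 0. Levels were taken after Aquantile normalization. Probes entered the test where 3 or more arrays of either channel were well above background (0.5 or more of the probe's spots). The brightest probe stood for a gene. Mean ratios were tested against 0 with lmFit and eBayes (6.36 degrees of freedom). The code of the fit was also run on simulated independent values, with planted ratios larger than those of most receptor calls. That run says nothing on these calls. The value at the detection limit set the dimmer channel of each array at the lowest signal among probes well above background. A higher measured level was kept. The value is averaged over arrays and is open to dye bias. The members and lists were chosen with earlier results of these data known. Named receptors are those called and the 3 of largest absolute ratio per transmitter, and others are given as class ranges or as examples chosen after their values were seen. From the lists of partners, called members were named. Some genes are counted but not reported here. Of 94 names, 92 matched a RefSeq symbol and 2 a synonym (GRCr8, used for names only). Figures were drawn with matplotlib in Python, after reading with pandas.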

Additional observations from a re-analysis of the deposited data

Results flagged for a closer look

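In 7 of the 82 tested receptor genes, 1 array stood apart from the other 3 by a gap, as a share of the gene's whole range, above Dixon's 95% critical value. Chance gives about 1 in 20. Replicate 4 was the array that stood apart in 5 of them. Gabrb2, a GABA-A beta subunit, was at 1.97 (log2 ratio) on replicate 4 against -0.54 to -0.31 on the others. Gabra3 was at 1.25 against 0.22 to 0.33. Gria4 was at 0.64 against -0.40 to -0.22. Htr2b was at -2.04 against -0.81 to -0.56. Replicate 1 stood apart in the other 2, with Grik3 at 0.14 against 0.41 to 0.42 and Grm2 at -0.12 against 0.44 to 0.49. None of the 7 genes was called.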

How the results depend on the processing

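With 4 receptor genes called, other settings with all arrays gave 3 to 5, among them 5 with array weights and with the channels as unpaired samples (no replicate block), and leaving out 1 replicate gave 0 to 1. Over all names, 2110 were called, 3483 with unpaired channels, and 562 to 1061 without 1 replicate. Median centring gave 1466 higher and 993 lower, 59.6% higher against 48.9%. Chrna4 lost its call with the processed signals, the deposited ratio and value table, and median centring. Adrb3 gained one with the processed signals, the deposited ratio and value table, and array weights, and Grin2c with unpaired channels. Of the named partners, Itpr1, Maoa, Slc1a3 and Slc6a13 lost theirs with the processed signals and the deposited ratio and value table. Over all settings, 0 to 4 receptors outside the name rule and 0 to 3 anchoring and auxiliary proteins were called. Htr5a reversed to -0.0931 without replicate 4 and ranged up to 1.18 without 1 replicate. The cause of these changes was not tested. The receptors' median ratio stayed between 0.12 and 0.32 in all settings. Detection on all arrays above the 95th percentile of negative control spots gave 96 of 115 receptor probes in mucosa and 96 in bulb. These replace 86 and 81, and 95 probes passed in both cultures. The share was 83.5% in each culture, against 87.9% of all probes in mucosa and 90.4% in bulb.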
